A study of Homo sapiens with 8 samples.

Results

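The question addressed here was whether vitamin C and DZNep acted on RNA levels independently of each other in HL60, an established human line of acute myeloid leukaemia. All 8 RNA-sequencing libraries of the study entered, 2 in each of 4 groups kept for 72 h under VC together with DZNep, DZNep alone, VC alone or phosphate-buffered saline (PBS). VC is vitamin C and DZNep is 3-deazaneplanocin A. For each gene the departure from additivity was taken on log2(value + 1) as the VC with DZNep minus VC difference, less the DZNep minus PBS difference. The same number is the effect of VC in the presence of DZNep minus the effect of VC in its absence. On the log scale, a departure of 0 means that the combination had the level obtained by multiplying the 2 single-drug fold changes. A positive departure means a higher level than that product and a negative one a lower level. Of 9543 genes in the table, 9513 had a mean value of at least 10 and were tested.

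DZNep inhibits S-adenosylhomocysteine hydrolase, so that S-adenosylhomocysteine builds up and restrains methyltransferases, among them EZH2 of Polycomb repressive complex PRC2. Vitamin C is a cofactor of iron-dependent dioxygenases, including the TET enzymes that oxidise 5-methylcytosine and the JmjC histone demethylases, and at high doses it is a pro-oxidant. Cells short of amino acids or under oxidative or folding stress translate the transcription factor ATF4, which raises genes for amino-acid synthesis, amino-acid import and the charging of transfer RNA. Many of those genes carry an element bound by ATF4 with a C/EBP partner near the start site. ATF4 is controlled largely at translation, so its own RNA is an incomplete readout of its activity.

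The deposited values are normalized whole numbers, with the same total of 1988507 units and the same median of 88 in every library, so read depth is unknown. The labels leave it unsaid whether paired libraries are independent cultures, and p-values measure only the spread between these libraries. The columns without a drug are headed control and were taken as the PBS group. Markers of promyelocytes and other myeloid cells that were measured, 9 of 12, included MPO, CEBPA and SPI1, and none of 5 epithelial markers was among the genes analysed. The summed level of the 9 myeloid markers was 10303 to 10959 units with both drugs and 8896 to 10351 with DZNep. It was 6276 to 6774 with VC and 5956 to 6653 with PBS. The members did not share this rise evenly. MPO had 3652 and 3652 units with both drugs and 3652 and 2726 with PBS, so the rise lay mostly in other members. The lymphoid markers measured, 2 of 7, summed to 38 to 48 units with both drugs, 28 to 36 with DZNep, 16 to 19 with VC and 14 to 15 with PBS, and their part in the results was not tested.

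Few genes departed from additivity far enough to be called, and both of them were lower than the single drugs predicted. At an adjusted p under 0.05 (limma, Benjamini-Hochberg over 9513 genes) 2 genes were called lower (0.021% of genes) and 0 higher. They were EPRS, the glutamyl-prolyl-tRNA synthetase, and BCAT1, the cytosolic branched-chain aminotransferase. At an unadjusted p under 0.05, called nominal from here on, 740 genes departed (7.78%), where chance alone gives 475.65. Of these, 412 lay lower (4.33%) and 328 higher (3.45%). The excess over chance was smaller when either VC library was left out. The median departure over all genes was 0.00, its 5th and 95th percentiles were -0.57 and 0.57, and its median SE was 0.24. Among genes with a group mean of at least 50 units, a departure of 0.46 was the median size needed to be nominal.

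The 2 effects of VC that the departure compares differed in how many genes they called. VC alone against PBS called 0 genes in limma after adjustment and 462 nominally (4.86%). VC added to DZNep called 64 genes (0.673%), of which 25 were higher (0.263%) and 39 lower (0.41%). Such counts depend on the threshold and do not compare the sizes of the effects. For TFRC the VC effect was called with DZNep at 0.69 (limma adjusted p = 0.0149). Without DZNep it was 0.80 and not called (limma adjusted p = 0.0839). Among the 412 genes nominally lower than predicted, the VC effect was larger in size with DZNep than without in 308 (74.8%), and among the 328 nominally higher genes in 251 (76.5%), against 58.6% of all genes tested. VC moved in opposite directions with and without DZNep in 79.1% of the lower and 83.2% of the higher genes, against 44.7% of all genes. Genes picked for a large difference will tend to show both properties, the more so where the effects with DZNep are more spread, so nothing is read from these shares. Across all genes, the effects of VC with and without DZNep, which share no library, had a Spearman rho of 0.12, with SDs of 0.31 and 0.23. The effects of DZNep with and without VC, which share no library with each other either, had a rho of 0.64. Genes are not independent replicates, and no p is attached to these values.

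**Figure D1:**
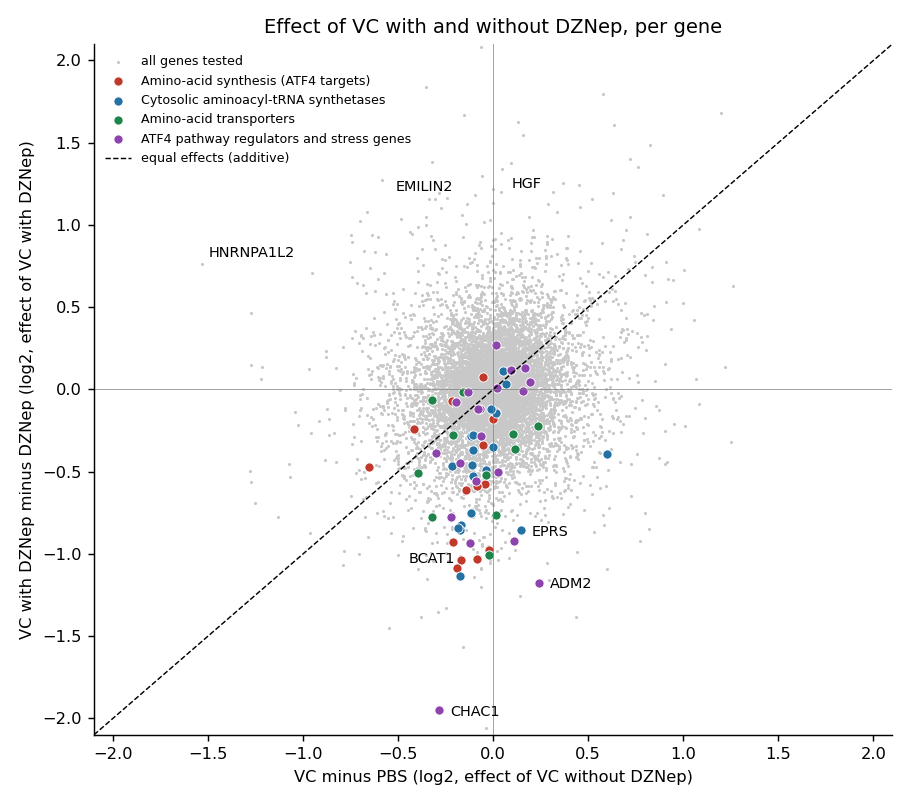
Each point is a gene, with the effect of VC in cells given DZNep (VC with DZNep minus DZNep, log2) on the vertical axis and the effect of VC without DZNep (VC minus PBS, log2) on the horizontal axis, and genes on the dashed diagonal are additive. Coloured members of the 4 amino-acid gene lists lie mostly below the diagonal, since their median VC effect was -0.39 with DZNep and -0.08 without, while HGF and EMILIN2 lie above it; 3 genes fall outside the axes.

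EPRS joins glutamate and proline to their transfer RNAs. It had 784 and 772 units with both drugs, 1443 and 1377 with DZNep, 2168 and 2168 with VC, and 1903 and 2021 with PBS. Both combination libraries lay below all others, and the 4 groups did not overlap. Multiplying the single-drug folds of 0.719 for DZNep and 1.11 for VC predicts 1558 units in the combination, and the observed fold over PBS was 0.397. The departure was -1.001 (SE 0.10, 95% confidence interval -1.23 to -0.77, limma adjusted p = 0.0141).

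BCAT1, which transfers the amino group of leucine, isoleucine and valine, had 514 and 489 units with both drugs, 1074 and 979 with DZNep, 1032 and 979 with VC, and 1032 and 1099 with PBS. The 6 libraries with 1 drug or none overlapped, and only the combination stood apart. Neither single drug moved BCAT1 past the threshold, with log2 differences from PBS of -0.05 for DZNep and -0.08 for VC (limma adjusted p = 0.72 and 0.96). VC added to DZNep lowered it to 0.489 of the DZNep level. The departure was -0.95 (SE 0.12, interval -1.21 to -0.68, limma adjusted p = 0.0492).

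Both calls depend on small spreads. Without a trend of spread with intensity, adjusted p was 0.357 for EPRS and 0.447 for BCAT1, and on the linear scale it was 0.343 and 0.295. EPRS kept its call without either combination library or without PBS library 2. It lost the call without DZNep library 1 (adjusted p = 0.159) or 2 (0.0948), VC library 1 (0.192) or 2 (0.193), or PBS library 1 (0.0844). BCAT1 lost its call without any single library, with adjusted p from 0.0761 (without combination library 1) to 0.503 (without DZNep library 1). The departure itself stayed between -1.04 and -0.96 for EPRS and between -1.01 and -0.88 for BCAT1. EPRS had identical values in both VC libraries; 1705 of the 9513 genes had at least 1 group with identical values, and so did 9 of the 30 leading genes described below.

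The promoters of the 2 called genes, 250 bases before to 50 after the RefSeq start on GRCh38.p14, are shown on the strand of the gene, EPRS at chr1:220046456-220046755 and BCAT1 at chr12:24949052-24949351, both on the minus strand. Capitals mark TGATGNAA, the composite element of ATF4 and C/EBP, searched on both strands. BCAT1 holds 1 copy, and these letters are not in the EPRS window.
EPRS: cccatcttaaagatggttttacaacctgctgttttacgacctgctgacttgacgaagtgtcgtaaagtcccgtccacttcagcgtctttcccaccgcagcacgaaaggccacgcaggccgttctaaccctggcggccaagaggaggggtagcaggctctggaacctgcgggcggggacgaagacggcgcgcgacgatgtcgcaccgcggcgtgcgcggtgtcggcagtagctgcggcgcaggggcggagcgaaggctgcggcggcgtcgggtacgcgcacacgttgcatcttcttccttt
BCAT1: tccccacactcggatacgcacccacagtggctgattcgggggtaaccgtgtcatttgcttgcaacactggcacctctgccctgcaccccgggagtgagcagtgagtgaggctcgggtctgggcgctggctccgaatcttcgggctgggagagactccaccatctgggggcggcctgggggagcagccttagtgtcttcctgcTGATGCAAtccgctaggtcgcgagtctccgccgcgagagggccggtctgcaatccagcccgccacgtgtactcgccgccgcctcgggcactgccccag

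Genes of amino-acid supply and of the ATF4 pathway, many of them known ATF4 targets, had the lowest list medians, and all of their nominal departures were downwards. They were drawn from 4 lists (amino-acid synthesis, amino-acid transporters, cytosolic aminoacyl-tRNA synthetases, and ATF4 regulators with their stress genes), with 65 tested genes in all. Of these, 30 were nominally lower than predicted (46.2%, against 4.33% of all genes) and 0 nominally higher (against 3.45%). All 48 gene lists used here were picked with earlier results of these data known. Such shares therefore describe the lists and are no independent support. The median departure of the 65 genes was -0.35, with 54 negative, against 0.00 over all genes. Both combination libraries lay below both DZNep libraries in 45 of the 65 (20.4% of all genes), and both VC libraries lay below both PBS libraries in 17 (15.2% of all genes). VC added to DZNep lowered 13 of the 65 past the adjusted threshold (0.41% of all genes), and VC alone lowered 0, as it did over all genes. DZNep alone already lowered 37 of them (6.63% of all genes) and raised 2 (6.42%). On the linear scale 50 of the 65 were still negative, but only 14 of the 30 nominal departures remained nominal.

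**Figure D2:**
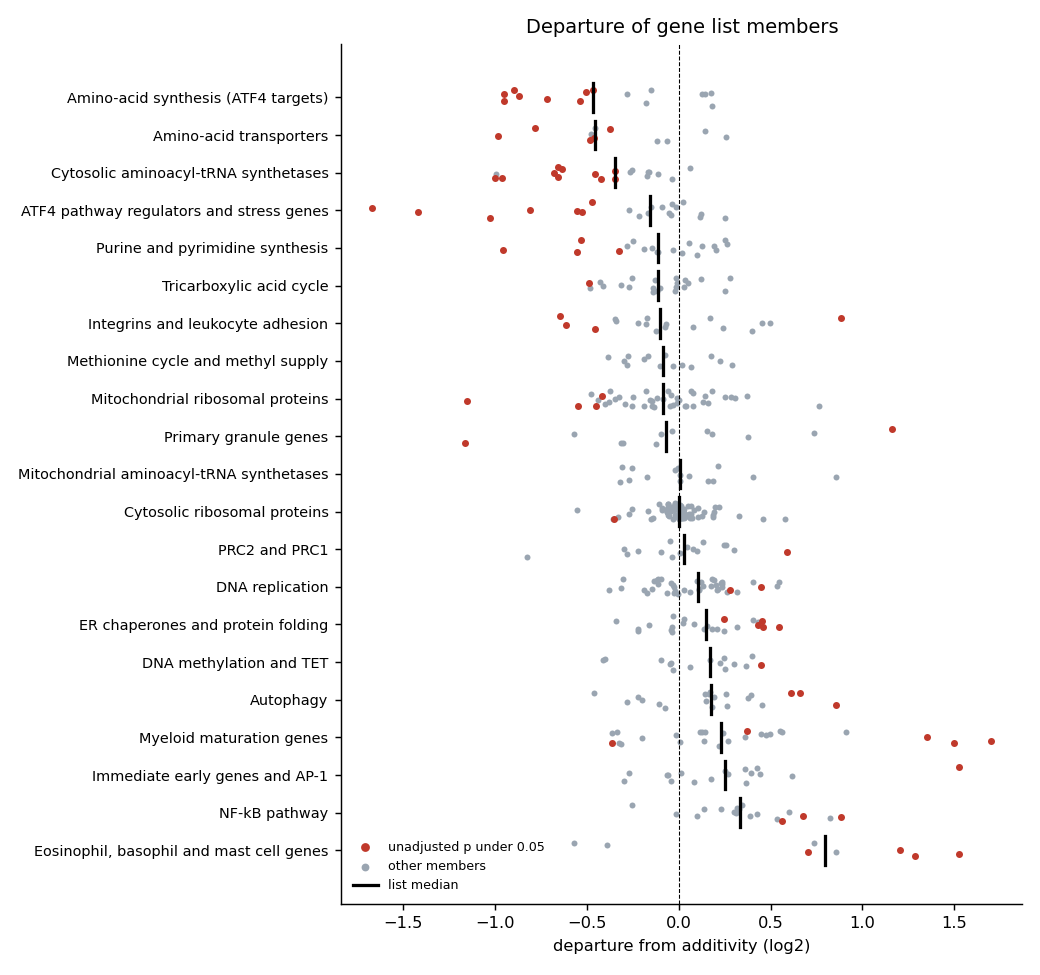
Points are list members placed by their departure from additivity (log2, horizontal axis), red where the unadjusted p was under 0.05, and black bars are list medians; the lists with the lowest and highest medians and 4 lists between them are shown. The 4 amino-acid lists have the lowest medians, from -0.46 to -0.16, and the eosinophil, basophil and mast cell list has the highest, 0.80. Of that list only 8 of 21 members were measured. Some of them passed the filter on low values only through the groups with DZNep, where they are high, so nothing is read from its median.

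Among enzymes of amino-acid synthesis, 8 of 15 were nominally lower (53.3%, against 4.33% of all genes), with a list median of -0.46. PSAT1, the aminotransferase of serine synthesis, had 162 and 146 units with both drugs, 320 and 335 with DZNep, 638 and 670 with VC, and 742 and 752 with PBS. Its 4 groups did not overlap and ran upwards from the combination through DZNep and VC to PBS. The predicted level was 287 units and the departure -0.89 (SE 0.13, limma adjusted p = 0.108), so PSAT1 was not called.

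ASNS, which makes asparagine, had 154 and 172 units with both drugs, 322 and 299 with DZNep, 560 and 560 with VC, and 638 and 660 with PBS. PCK2, the mitochondrial phosphoenolpyruvate carboxykinase, had 61 and 56 units with both drugs, 120 and 112 with DZNep, 246 and 237 with VC, and 249 and 242 with PBS. In both genes the combination lay lowest and DZNep next, with VC below PBS in ASNS and overlapping PBS in PCK2. Departures were -0.71 for ASNS and -0.95 for PCK2 (limma adjusted p = 0.238 and 0.206). PHGDH, the first enzyme of serine synthesis, had a departure of -0.87 (adjusted p = 0.472), with 149 and 198 units against a predicted 315. GPT2 (-0.46), PYCR1 (-0.54) and the mitochondrial folate enzyme MTHFD1L (-0.50) were nominally lower. SHMT2 (-0.18) and MTHFD2 (-0.28) were not nominal, and PSPH was on the positive side at 0.18.

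Of the transporters, 5 of 11 were nominally lower (45.5%, against 4.33% of all genes), with a median of -0.45. SLC7A5, which exchanges large neutral amino acids, had 412 and 324 units with both drugs, 752 and 718 with DZNep, 1099 and 1280 with VC, and 1324 and 1099 with PBS. The combination lay below DZNep, and the VC and PBS libraries overlapped. Its departure was -0.98 and that of its partner chain SLC3A2 was -0.38 (limma adjusted p = 0.238 and 0.629). SLC7A11, the cystine importer, reached -0.78 the neutral amino-acid carrier SLC1A4 -0.48 and SLC43A1, a carrier of large neutral amino acids, -0.46. By contrast, the glutamine carriers SLC1A5 and SLC38A2 were near additivity at -0.12 (interval -0.46 to 0.23) and -0.06 (interval -0.41 to 0.29). DZNep alone had lowered both, to 0.332 and 0.472 of the PBS level.

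Of the cytosolic aminoacyl-tRNA synthetases, 18 of 19 had a negative departure, against 4693 of all 9513 genes. Of the 19, 10 were nominally lower (52.6%, against 4.33% of all genes), and the median was -0.35. MARS, the methionine enzyme, had 334 and 374 units with both drugs, 784 and 773 with DZNep, 1032 and 1172 with VC, and 1376 and 1122 with PBS. The combination lay below all other libraries, and VC and PBS overlapped. Its departure was -0.96 (SE 0.16, limma adjusted p = 0.199), and exons of MARS overlap those of DDIT3 on the other strand, whose reads cannot be told apart where strand was not used in counting. GARS (-0.68), LARS (-0.66), AARS (-0.66), YARS (-0.64), FARSB (-0.45), WARS (-0.42), TARS (-0.35) and NARS (-0.35) were the other nominal members besides EPRS. HARS was at 0.06 and RARS at -0.04. Of the synthetases for mitochondrial protein synthesis, 0 of 15 were nominal and the median was 0.01, a contrast between the lists that was not itself tested. XPOT, which exports transfer RNA from the nucleus, had 548 and 476 units with both drugs, 1056 and 900 with DZNep, 1376 and 1280 with VC, and 1443 and 1443 with PBS. It followed the synthetases, with a departure of -0.81 (limma adjusted p = 0.206).

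The regulators were split. ATF4 itself had 549 and 549 units with both drugs, 596 and 596 with DZNep, 718 and 698 with VC, and 766 and 718 with PBS, and its departure was -0.05 (interval -0.30 to 0.20). DDIT3 (CHOP) and TRIB3, a target that restrains ATF4, were lowered by DZNep to 0.377 and 0.388 of the PBS level. The effect of VC with DZNep was -0.01 for DDIT3 and -0.28 for TRIB3, and their departures were -0.17 (interval -0.79 to 0.46) and -0.22 (interval -0.65 to 0.21). ATF5 (-0.53), the sestrin SESN2 (-1.03), DDIT4 (-0.47), VLDLR (-0.55) and ADM2 (-1.42) were nominally lower. CHAC1, which degrades glutathione, had the most negative departure of the list, -1.67, but with 10 and 2 units with both drugs, 16 and 28 with DZNep, 102 and 84 with VC, and 125 and 102 with PBS. Its SE was 0.70, its adjusted p 0.629, and on the linear scale its sign turned. Of the sensor kinases upstream, EIF2AK1 to EIF2AK4, none was nominal, and their departures ran from -0.15 for EIF2AK4 to 0.25 for EIF2AK3.

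**Figure D3:**
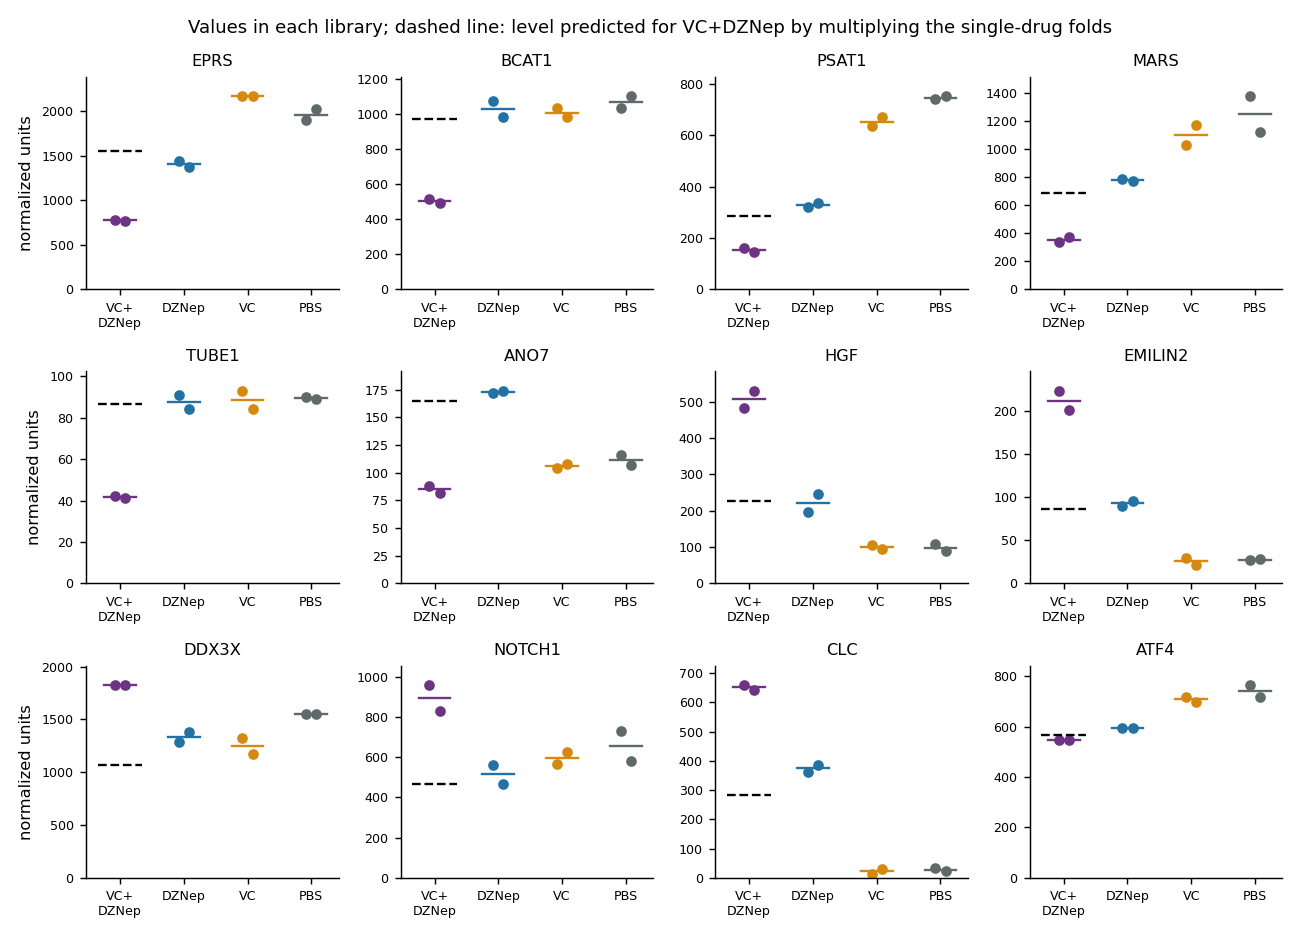
Each panel gives 1 gene in normalized units (vertical axis, from 0), with 2 libraries as points and their mean as a bar for VC with DZNep, DZNep, VC and PBS from left to right, and the dashed line at the left is the level predicted by multiplying the single-drug folds. Combination libraries fall below the line for EPRS, BCAT1, PSAT1, MARS, TUBE1 and ANO7, above it for HGF, EMILIN2, DDX3X, NOTCH1 and CLC, and near it for ATF4.

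The ATF4 and C/EBP element was looked for in all promoters, since these members moved together. RefSeq windows could be matched for 7881 of the 9513 genes, and 132 of them held TGATGNAA (1.67%). Of the 4 amino-acid lists, 56 genes had a window and 16 held the element (28.6%). These lists include known ATF4 targets, so a share above that of all genes was built into them and nothing is read from it. Within the lists, the element was in 9 of the 25 nominally lower members with a window (36.0%) and in 7 of the 31 other members (22.6%). Outside those lists, 7 of 324 nominally lower genes held it (2.16%), and so did 7 of 268 nominally higher genes (2.61%). The 9 sites in nominally lower members are printed along the strand of the motif, which is in capitals, with 5 bases on either side (GRCh38.p14), where N stands for any base. A match is a description of sequence only.
AARS, chr16:70289681-70289698: ttggcTGATGCAActgcg
ASNS, chr7:97872464-97872481: aggcaTGATGAAActtcc
BCAT1, chr12:24949137-24949154: cctgcTGATGCAAtccgc
CHAC1, chr15:40953257-40953274: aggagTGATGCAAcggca
MARS, chr12:57488059-57488076: ctcgcTGATGCAAccgga
MTHFD1L, chr6:150866352-150866369: ggctcTGATGCAAtcgcg
NARS, chr18:57621810-57621827: ctctcTGATGCAAcgccg
SLC3A2, chr11:62881731-62881748: ggagcTGATGTAAggagt
TARS, chr5:33440962-33440979: ccagcTGATGCAAtcgaa

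Beyond the ATF4 genes, other genes lower than predicted had a few recurrent shapes. The 15 leading genes in each direction were chosen by p among genes with a group mean of at least 50 units, and apart from EPRS and BCAT1 none of them was called. A first shape was that of BCAT1, with neither drug alone moving the gene past the adjusted threshold. TUBE1, the epsilon tubulin of centrioles, had 42 and 41 units with both drugs, 91 and 84 with DZNep, 93 and 84 with VC, and 90 and 89 with PBS. Only the combination stood apart, and the departure was -1.04 (limma adjusted p = 0.238). CLNS1A, which helps assemble spliceosomal particles, had 328 and 278 units with both drugs, 560 and 578 with DZNep, 596 and 548 with VC, and 670 and 610 with PBS, a departure of -0.75. Unlike in BCAT1, the DZNep and VC libraries of CLNS1A all lay below PBS, by -0.17 and -0.16 on the log2 scale. KCNAB2, a potassium channel subunit, departed by -0.96, with 2168 and 1824 units in the combination and 3112 to 4795 in the other 6 libraries. TUBE1 and KCNAB2 have exons that overlap genes on the other strand (WISP3 and NPHP4).

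In a second shape, DZNep raised the gene and VC added to DZNep lowered it again. ANO7, a member of the anoctamin family, had 88 and 82 units with both drugs, 172 and 174 with DZNep, 104 and 108 with VC, and 116 and 107 with PBS. Its combination level lay below PBS, and the departure was -0.95 (limma adjusted p = 0.206). ITGA2B, integrin alpha IIb, had 413 and 394 units with both drugs against 718 and 620 with DZNep, 380 and 380 with VC and 450 and 374 with PBS, a departure of -0.61 (adjusted p = 0.424). PDK1, which restrains entry of pyruvate into the mitochondrial cycle, departed by -0.92 and the cytolinker DST by -0.85, but in neither did a single step pass the adjusted threshold. PRAM1, an adaptor of granulocytes, followed the ATF4 genes in shape: DZNep lowered it, and the combination had 444 and 424 units against a predicted 688 (-0.66).

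Purine and pyrimidine synthesis was the next family down, with a median of -0.11. Of its 20 members, 4 were nominally lower (20%, against 4.33% of all genes) and 0 higher (against 3.45%). These were CAD (-0.55), which starts pyrimidine synthesis, and ATIC (-0.53), IMPDH2 (-0.32) and ADSL (-0.96) of purine synthesis, the last with at most 31 units in any library. Smaller downward shares were 4 of 43 mitochondrial ribosomal proteins, 5 of 38 ribosome biogenesis genes and 3 of 30 DNA repair genes. These are 9.3%, 13.2% and 10%, against 4.33% of all genes. Each list had 0 nominally higher members, against 3.45% of all genes, and in lists of this size nothing is read from that absence. Their medians were -0.09, -0.02 and -0.03. Named members were MRPS27 (-0.55), the nucleolar protein NPM1 (-0.31) and the end-joining subunit XRCC5 (-0.57). Cytosolic ribosomal proteins had a median of 0.00, with 1 of 76 nominal.

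Some of the leading genes above the prediction were raised by DZNep and raised further by VC. HGF, hepatocyte growth factor, had 483 and 530 units with both drugs, 196 and 246 with DZNep, 106 and 96 with VC, and 109 and 88 with PBS. VC and PBS overlapped, DZNep lay above them and the combination above all. The single-drug folds of 2.23 and 1.03 predict 226 units, the observed fold over PBS was 5.12, and the departure was 1.16 (SE 0.21, limma adjusted p = 0.206).

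EMILIN2, an extracellular matrix glycoprotein, had 224 and 201 units with both drugs, 90 and 96 with DZNep, 30 and 22 with VC, and 27 and 28 with PBS, a departure of 1.28 (limma adjusted p = 0.238). KIAA1551, a factor in silencing of retroelements also named RESF1, had 772 and 772 units with both drugs, 326 and 345 with DZNep, 205 and 210 with VC, and 142 and 196 with PBS, a departure of 0.89. In each the combination was more than the single drugs predicted and DZNep lay above PBS. RANBP2, a nucleoporin, had 5185 and 4795 units with both drugs, 2724 and 3112 with DZNep, 1056 and 1032 with VC, and 918 and 1216 with PBS, a departure of 0.79. AHNAK, a large scaffold protein, departed by 0.75. On the linear scale, HGF (adjusted p = 0.0329), KIAA1551 and CLC were called higher and no gene lower.

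Other genes were lower with DZNep alone than with DZNep and VC. SLC2A3, the glucose transporter GLUT3, had 280 and 296 units with both drugs, 183 and 198 with DZNep, 286 and 326 with VC, and 324 and 313 with PBS. DZNep alone lay below every other library, and the departure was 0.65 (limma adjusted p = 0.308). INCENP, of the chromosomal passenger complex, had 315 and 290 units with both drugs, 194 and 184 with DZNep, 262 and 274 with VC, and 287 and 256 with PBS, a departure of 0.69. NOTCH1, the receptor, had 960 and 828 units with both drugs, 560 and 468 with DZNep, 564 and 628 with VC, and 728 and 582 with PBS. Its combination libraries lay above all others, and the departure was 0.93 (limma adjusted p = 0.246).

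A further group had VC alone below PBS and the combination above DZNep. DDX3X, an RNA helicase, had 1826 and 1826 units with both drugs, 1281 and 1377 with DZNep, 1324 and 1172 with VC, and 1548 and 1548 with PBS. Each single drug lay below PBS and the combination above it, and the departure was 0.77 (SE 0.12, limma adjusted p = 0.108). RETSAT, retinol saturase, had 106 and 107 units with both drugs, 90 and 95 with DZNep, 60 and 51 with VC, and 86 and 90 with PBS, a departure of 0.86. MTMR3 (0.89), a lipid phosphatase, and RASSF2 (0.71) had group means that were highest with the combination and lowest with VC. UBL4A (0.89) was lowest with DZNep, and its combination mean lay below PBS. HNRNPA1L2 had the most positive value of the 30 genes, 2.29 (SE 0.50), with 112 and 264 units in the DZNep libraries alone. It is a retrocopy of HNRNPA1, whose reads may have been divided between the copies. BEST1 (0.66) was unlike this group, since VC alone lay above PBS, with 538 and 488 units against 370 and 377. Exons of BEST1 overlap FTH1 on the other strand, itself at 0.42, and RETSAT overlaps ELMOD3 in the same way.

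**Figure D4:**
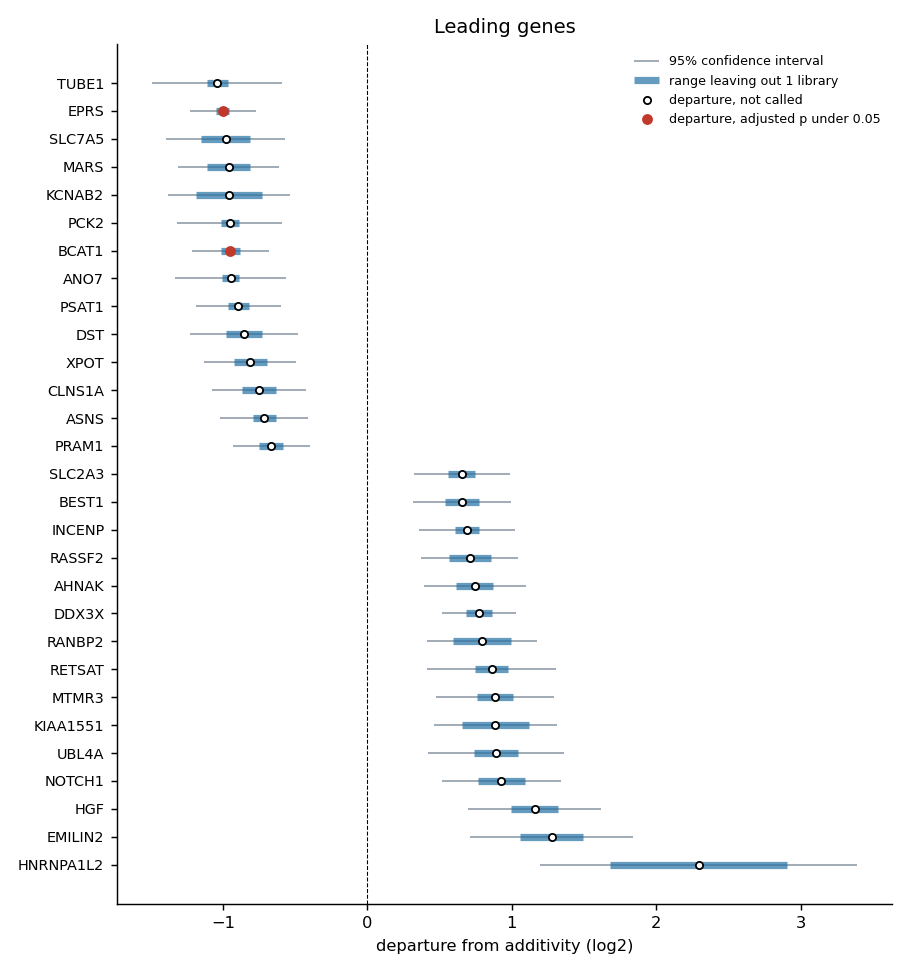
For 29 of the 30 leading genes, circles give the departure from additivity (log2, horizontal axis), thin lines its 95% confidence interval and thick lines the range over 8 fits that each leave out 1 library. Every range stays on its own side of 0, which is largely built in, since the genes were chosen by p in these same libraries. Only EPRS (-1.001) and BCAT1 (-0.95), in red, were called.

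The lists with the highest medians were those of eosinophil, basophil and mast cell genes, the NF-kB pathway, immediate early genes and myeloid maturation genes. Of the eosinophil, basophil and mast cell genes, 8 of 21 were measured. Some of these passed the filter on low values only through the groups with DZNep, where they are high, so their median of 0.80 and the 4 nominally higher members support nothing beyond the values given here. CLC, the Charcot-Leyden crystal protein galectin-10, had 660 and 643 units with both drugs, 362 and 386 with DZNep, 13 and 30 with VC, and 32 and 22 with PBS. It was 23.7-fold over PBS with both drugs and 13.6-fold with DZNep, and the departure was 1.20 (SE 0.43, limma adjusted p = 0.597). VC libraries were low and scattered, and the departure ran from 0.63 to 1.78 when 1 library was left out. GATA2, a transcription factor of these lineages, departed by 0.70, with 942 and 728 units in the combination, 637 and 844 with DZNep, 348 and 362 with VC, and 576 and 456 with PBS. Mast cell carboxypeptidase CPA3 (1.29) and the interleukin-33 receptor IL1RL1 (1.52) had VC and PBS values of 2 to 8 units, where 2 is the lowest value in the table. For CPA3 the effect of VC was 0.07 with DZNep and -1.22 without. The summed level of 4 of 9 defining markers of these cells was 828 to 851 units with both drugs, 520 to 585 with DZNep, 52 to 72 with VC and 56 to 79 with PBS. RNASE2 went the other way, at -0.57, without being nominal. Fewer cells of a type and less RNA per cell cannot be told apart in bulk libraries. Eosinophil peroxidase EPX and the mast cell receptor chain MS4A2 were not analysed here.

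The NF-kB list had a median of 0.34 with 16 of 18 members positive. In this list, 3 were nominally higher (16.7%, against 3.45% of all genes) and 0 lower (against 4.33%). Both combination libraries lay above both DZNep libraries in 12 of the 18 (20.6% of all genes). NFKB2, the p100 precursor, had 60 and 56 units with both drugs, 30 and 41 with DZNep, 105 and 105 with VC, and 100 and 90 with PBS, so that the combination lay between DZNep and the other groups. Its departure was 0.56, that of the inhibitor NFKBIB 0.67 and that of the adhesion molecule ICAM1 0.88. TNFAIP3, an inhibitor of the pathway, was at 0.53 and NFKBIA at 0.32, neither nominal. No member was called for the departure or for VC added to DZNep.

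Myeloid maturation genes had a median of 0.23. Of 26 members, 4 were nominally higher (15.4%, against 3.45% of all genes) and 1 lower (3.85%, near the 4.33% of all genes). CLEC7A, the beta-glucan receptor dectin-1, had 38 and 32 units with both drugs, 9 and 18 with DZNep, 72 and 72 with VC, and 72 and 113 with PBS, a departure of 1.70 (limma adjusted p = 0.399). The combination lay above DZNep alone and below VC and PBS. S100A8 (1.495), a calprotectin subunit with 40 units at most, and ALOX5AP (0.37) were also nominally higher, whereas CSF3R, the granulocyte colony-stimulating factor receptor, was lower at -0.36. In the separate list of primary granule genes, the protease CTSG was lower too, at -1.16, with only 8 and 7 units in the combination. That list had a median of -0.07. Of its 12 members, 1 was nominally higher and 1 lower (8.33% each, against 3.45% and 4.33% of all genes). Of the immediate early genes, 1 of 17 was nominal, FOS at 1.53. That share of 5.88% is near the 3.45% of all genes, and the median was 0.25.

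Protein quality-control and antioxidant lists had smaller positive medians. Of ER chaperones and folding enzymes, 5 of 24 were nominally higher (20.8%, against 3.45% of all genes) and 0 lower (against 4.33%). Their median was 0.15. HYOU1 had 686 and 765 units with both drugs, 627 and 637 with DZNep, 398 and 395 with VC, and 462 and 489 with PBS, and departed by 0.46; HSPA5 (BiP) departed by 0.25. Of autophagy genes, 3 of 20 were nominally higher (15%, against 3.45% of all genes), which were the receptor SQSTM1 (0.61), ATG9A (0.66) and the regulator TFEB (0.85). Of proteasome subunits, 4 of 29 were nominally higher (13.8%, against 3.45% of all genes) and 1 lower (3.45%, near the 4.33% of all genes). PSMD11 led the higher ones, with 216 and 233 units in the combination against 140 to 157 in the other 6 libraries (0.65). Of the NRF2 list, TXNRD1 (0.53), FTH1 (0.42) and NQO1 (1.22) were nominally higher and SLC7A11 and PRDX5 (-0.37) lower. These were 12.5% and 8.33% of its 24 members, against 3.45% and 4.33% of all genes. That list had a median of 0.11.

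Several genes of interest for these drugs had departures whose intervals include 0. VC alone moved none of them past the adjusted threshold. TFRC, the transferrin receptor, had 1377 and 1443 units with both drugs, 828 and 918 with DZNep, 718 and 844 with VC, and 463 and 432 with PBS. The single-drug folds of 1.95 and 1.74 predict 1517 units, and the departure was -0.11 (interval -0.42 to 0.21). CFL1, cofilin, was 2.52-fold over PBS with both drugs, 1.56-fold with DZNep and 1.56-fold with VC, a departure of 0.05 (interval -0.29 to 0.38). SETD2, the histone H3 lysine 36 methyltransferase, was 5.45-fold over PBS with both drugs and 4.84-fold with DZNep, a departure of 0.22 (interval -0.09 to 0.53). BCL2, which blocks apoptosis, departed by -0.20 (interval -0.72 to 0.32), with 130 and 96 units in the combination against a predicted 128. EZH2 departed by 0.26 (interval -0.27 to 0.79), AHCY, the enzyme DZNep inhibits, by -0.28 (interval -0.61 to 0.06), and MYC by -0.22 (interval -0.51 to 0.08). Unlike these, DNMT1, the maintenance DNA methyltransferase, was nominally higher than predicted at 0.45 (interval 0.11 to 0.79), with VC with DZNep above DZNep on average and VC below PBS. Intervals of this width leave room for departures of up to about the size seen in the nominal genes.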

How the data were processed

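RNA from HL60 cells was sequenced in 8 libraries, 2 for each of 4 groups. The submitters' processing notes name builds hg38 and GRCh38 and 4 tools, which are DESeq 1.18.1, HTSeq 0.6.0, HISAT2 2.0.4 and SAMtools 1.3.1. The table deposited by the authors names EDASeq. The authors had normalized its whole numbers before they were deposited, per the file headers, and each is handled as a score in normalized units, since all libraries share one sorted set of values. It is therefore not a table of reads, and no test on reads was run. Settings of the normalization and use of strand are not given in the sources used here. A change common to most genes cannot be seen in such values, and levels of different genes cannot be compared.

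Genes were matched by identifier to GENCODE 29. Group means were fitted to log2(value + 1) of all 8 libraries with limma 3.58.1 in R 4.3.3, allowing prior variance to follow mean level (prior degrees of freedom 6.46, residual 4). Tests were on both sides, and p-values were adjusted over 9513 genes. The fit was also run on simulated data with known departures, drawn under its own assumptions on spread. That run does not measure error rates in these libraries. Errors are limma SEs, and levels are values of 2 libraries. The 48 gene lists, their members and the naming rule were picked with earlier results of these data known. The rule took the 15 leading genes in each direction with a group mean of at least 50 units, up to 4 members of each list by p, and a fixed set; other list members are named by being nominal. Members named beyond it (such as SLC38A2, HARS, TNFAIP3 and XRCC5) were chosen after their values were seen. Alternatives changed the pseudocount, filter, variance trend, scaling, replicate block and scale, and left out each library. A few genes are not reported here.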

Additional observations from a re-analysis of the deposited data

Results flagged for a closer look

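In the main fit, the effect of VC differed with and without DZNep for EPRS and BCAT1, by the test of the difference itself (limma adjusted p = 0.0141 and 0.0492). Both calls were lost without an intensity trend and on the linear scale, and that of BCAT1 also with a mean value of at least 50. EPRS changed with VC by -0.86 on the log2 scale in DZNep-treated cells and by 0.14 in cells without DZNep, a difference of -1.001. Its combination libraries both lay below both DZNep libraries, as they did in 20.4% of all genes. BCAT1 changed with VC by -1.03 in DZNep-treated cells and by -0.08 without DZNep, a difference of -0.95, and its 2 combination libraries likewise lay below the other 6.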

How the results depend on the processing

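The number of genes called, 2, stayed at 2 with a pseudocount of 10 or 0.5, without a filter and with median-of-ratios scaling. It was 1 (EPRS) with a mean value of at least 50, 0 without an intensity trend, and 3 on the linear scale (CLC, HGF and KIAA1551, all higher, in place of EPRS and BCAT1). It ranged from 0 to 2 when 1 library was left out. OGT joined EPRS without combination library 1, and CANX, with 5184 and 10345 units in the 2 combination libraries, joined it without combination library 2. The replicate block gave 3 (EPRS, BCAT1 and HNRNPA1L2); library numbers did not pair, since same-numbered libraries of different groups had deviations correlated by -0.05 to 0.09. Nominal genes numbered 238 to 377 higher and 256 to 529 lower when 1 library was left out, and the lower count was 256 without VC library 1 and 274 without VC library 2. Of the 30 leading genes only EPRS and BCAT1 were called in the main fit, so only these 2 could lose a call. A gene that was not called and stayed so counts as keeping its side. The 30 were chosen by p in these same libraries, so nothing is read from an unchanged sign. They were refitted 16 times each, 480 values in all. Of these, 459 kept their direction and side of the threshold, 18 lost a call, 3 gained one and 0 changed sign. Medians of the 48 lists moved by more than the spread in 62 of 720 refits. Signs turned only for genes that were not called. Leaving out 1 library gave -0.035 (without DZNep library 2) to 0.55 for EZH2, -0.42 to 0.017 (without combination library 2) for BCL2 and -0.22 to 0.011 (without VC library 2) for TFRC. For MPO it gave -0.31 to 0.11 (without PBS library 2; 0.019 without VC library 2). For CFL1 it gave -0.093 (without combination library 1) to 0.19, with -0.048 without DZNep library 2 or VC library 1. For ERAP1 it gave -0.48 to 0.21 (without combination library 1). For B2M it gave -0.045 (without combination library 2) to 0.18, with -0.019 without DZNep library 1 and -0.0031 without VC library 1. On the linear scale, in units, BCL2 was 18, TFRC 203.5 and CHAC1 4.5. The causes were not tested. Read depth is unknown, and with 2 libraries a group the precision of a departure is that of its SE.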
